A study of Mus musculus with 17 samples.

Results

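Interferon-stimulated genes were followed in 17 mammary tumors of transgenic mice. The set has 36 genes listed by their symbols, and 35 of them have a probe on the array, among 28784 genes in all. Xaf1 was not matched to a probe. Each gene was read from its brightest probe, by the gene name or RefSeq accession in the scanner files; the list itself uses no measured value. The mice were of the FVB strain and carried human CUX1, a homeodomain transcription factor, as its p75 isoform (9 tumors) or its p110 isoform (8 tumors) under the mouse mammary tumor virus promoter, which is active mainly in mammary epithelium. The p75 tumors were 4 adenosquamous carcinomas, 3 solid carcinomas, 1 adenomyoepithelioma and 1 adenocarcinoma. The p110 tumors were 6 solid carcinomas, 1 adenoma and 1 adenomyoepithelioma. Every tumor came from a mouse with a number of its own, which names it here (p75-216, p110-314). No normal gland and no tumor without the transgene was analysed here. Epithelial cells were cut out with a laser, their RNA was amplified, and each tumor was run on dye-swapped arrays against 1 pooled mouse reference RNA. In a second grouping the tumors fall into the high-Wnt (5), medium-Wnt (5) and low-Wnt (7) clusters of the study, which were made from Wnt genes on these same arrays. None of those genes is a member of the interferon set. The question was how strongly the interferon program was on in each tumor, and whether it differed by transgene, histology or Wnt cluster.

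Interferons are secreted proteins through which cells report viruses, foreign or misplaced nucleic acids and inflammation. Type I interferons act through receptor-bound kinases on a transcription factor complex that contains Irf9 and binds an interferon-stimulated response element (ISRE), and interferon-gamma acts on a gamma-activated site (GAS). The genes so induced include sensors of viral RNA, enzymes and binding proteins that block viral replication, the ubiquitin-like protein Isg15, GTPases that attack vacuoles of intracellular parasites, and chemokines that draw in T cells. Many tumors express such genes without a virus, from the tumor cells themselves or from other cells around them.

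RefSeq promoter windows (mouse build GRCm38.p6, 250 bases before to 50 bases after the start of the gene, the first listed start where there were several) were found for 28 of the 35 members. The core of the ISRE was searched as GAAA, any 2 bases, GAAA, and the GAS as TTC, any 3 bases, GAA, both on either strand, with overlapping matches counted separately. At least 1 ISRE core lay in 16 of the 28 windows (57.1%) and in 943 of 27025 windows of all genes (3.49%). A GAS lay in 8 of the 28 (28.6%) and in 2288 of all (8.47%). Both were in 4 windows and neither was in 8. Windows of 4 members whose values are given below are printed with the matches in capitals: Isg15 (chr4:156200769-156201068, minus strand), with 3 overlapping ISRE cores, Ifit3 (chr19:34583279-34583578, plus strand), with 2 cores on the opposite strand, Igtp (chr11:58199306-58199605, plus strand), with a GAS shortly before an ISRE core, and Irf1 (chr11:53769764-53770063, plus strand), with a GAS alone.
Isg15: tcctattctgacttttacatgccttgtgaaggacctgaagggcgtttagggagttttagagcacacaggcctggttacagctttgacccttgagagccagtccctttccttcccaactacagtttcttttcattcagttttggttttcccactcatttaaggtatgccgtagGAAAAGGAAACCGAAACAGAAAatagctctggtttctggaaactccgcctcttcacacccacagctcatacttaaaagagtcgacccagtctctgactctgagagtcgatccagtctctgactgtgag
Ifit3: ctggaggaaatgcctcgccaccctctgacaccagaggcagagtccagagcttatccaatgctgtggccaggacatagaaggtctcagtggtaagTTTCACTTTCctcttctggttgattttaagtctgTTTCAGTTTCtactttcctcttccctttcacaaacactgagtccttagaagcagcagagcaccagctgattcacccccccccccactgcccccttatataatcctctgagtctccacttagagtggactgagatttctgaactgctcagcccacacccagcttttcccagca
Igtp: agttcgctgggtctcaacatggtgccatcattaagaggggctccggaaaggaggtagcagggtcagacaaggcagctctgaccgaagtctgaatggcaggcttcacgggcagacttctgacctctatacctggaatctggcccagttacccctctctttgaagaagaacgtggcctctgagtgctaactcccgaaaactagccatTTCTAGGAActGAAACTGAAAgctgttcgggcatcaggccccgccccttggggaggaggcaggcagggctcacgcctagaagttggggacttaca
Irf1: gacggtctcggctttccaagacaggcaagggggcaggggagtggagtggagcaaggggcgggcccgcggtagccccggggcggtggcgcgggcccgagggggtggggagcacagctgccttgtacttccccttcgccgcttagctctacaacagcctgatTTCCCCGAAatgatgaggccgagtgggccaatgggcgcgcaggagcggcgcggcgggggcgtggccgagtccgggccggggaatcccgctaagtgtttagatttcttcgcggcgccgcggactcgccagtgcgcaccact
The matches describe the letters of these windows and were not tested for binding.

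Values are log2 ratios of tumor over reference, so that 0 means the level of the reference and 1 means a factor of 2 above it. They can be compared between tumors for 1 gene, but not between genes, since each gene has its own level in the reference. Measured means here that a gene's spot passed the scanner's test for signal well above background, in the color of the tumor RNA, on all arrays of that tumor. By this count 19 of the 35 members were measured in at least 12 tumors, 11 of them in all 17, while Ifit2 and Cxcl11 were measured in none. The chemokines were weakest, with 0 of 3 measured in at least 12 tumors. All 5 interferon-induced GTPases, 10 of 18 antiviral effectors, 2 of 4 transcription factors, 1 of 2 RNA sensors and 1 of 3 genes of Isg15 conjugation passed. The 19 genes were Irf1, Irf9, Ifih1, Oas1a, Oas2, Oasl2, Eif2ak2, Isg20, Adar, Bst2, Ifi35, Ifi44, Parp14, Trim25, Gbp2, Gbp3, Igtp, Iigp1 and Irgm1. In the color of the tumor RNA 21.5% to 65.6% of probes passed this test, with the lowest shares in p110-374, p110-98 and p110-225, where the reference was 11.2, 11.8 and 8.34 times as bright as the tumor against at most 4.02 in the others. In those 3 tumors 15, 11 and 17 of the 35 members were measured, against 18 to 32 in the other 14. All p110 arrays were scanned in one year and all p75 arrays in another, so transgene and scan year cannot be told apart. The epithelial keratin Krt8 was between 0.17 and 2.81 in the other 16 tumors, but in p110-121 Krt8 was at -4.32 and its partner Krt18 at -4.91, and the median of 16 leukocyte markers there was 1.74 against at most 0.23 elsewhere. The library labeled p110-121 therefore went against its label of epithelial cells. It was kept in the comparisons, among the p110 tumors, the p110 solid carcinomas and the medium-Wnt tumors.

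The interferon genes differed in level from tumor to tumor. Over the 19 well-measured members the median log2 ratio was highest in p75-216, the only adenocarcinoma, at 2.50 (quartiles 1.13 and 3.19), with 18 of 19 genes above the reference. Over all 35 members it was 1.43 there, and with arrays scaled to the same spread p110-314 (3.16) was above p75-216 (2.23). The median was 1.25 in p110-360, 1.21 in p110-314, 1.19 in p75-534, 1.10 in p75-80, 1.08 in p110-121, 0.96 in p75-150 and 0.71 in p110-143. It went on without a break over 0.60 in p75-90, 0.39 in p75-101, 0.30 in p75-47 and 0.12 in p110-225. The lowest was p75-94, an adenosquamous carcinoma, at -0.92 (quartiles -2.20 and -0.65), with 0 of 19 genes above the reference. Next above it came p75-129 (-0.70), p110-98 (-0.25), p110-416 (-0.21) and p110-374 (-0.05). Over all genes measured in at least 12 tumors the median lay between -0.22 and 0.11 in every tumor, as the loess curve of each array sets it near 0. With each array centered on its median in place of that curve, p110-98 was at -2.28 and p110-225 at -1.98, below p75-94 at -0.96. The highest value of a gene was in p75-216 for 11 of the 19 members and the lowest was in p75-94 for 13.

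**Figure D1:**
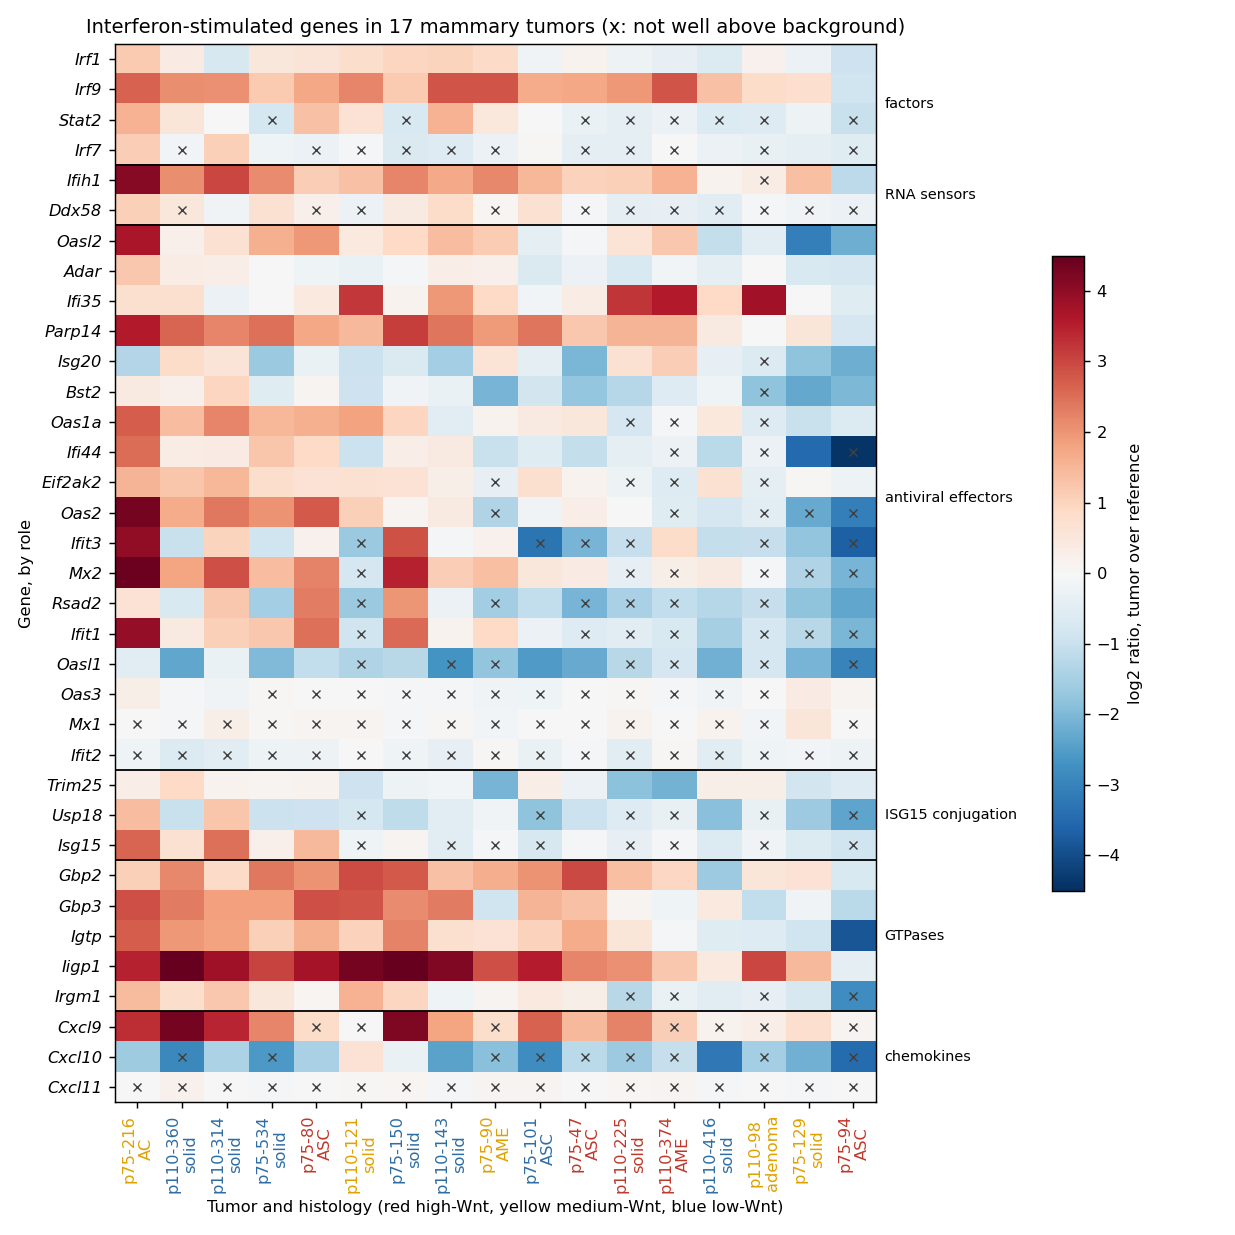
Log2 ratio of tumor over reference for the 35 members (rows, by role) in 17 tumors (columns, by falling median of the 19 well-measured members, with histology: AC adenocarcinoma, ASC adenosquamous carcinoma, AME adenomyoepithelioma); a cross marks a value whose tumor color was not well above background. The left column, p75-216, is red in most rows and the right column, p75-94, is blue, while tumors of all 3 clusters are found on both sides.

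Both extremes were p75 tumors, and each grouping held high and low tumors. In p75 tumors the median of the 19 genes ran from -0.92 to 2.50 (median over tumors 0.60, n = 9) and in p110 tumors from -0.25 to 1.25 (0.41, n = 8). Adenosquamous carcinomas ran from -0.92 to 1.10 (n = 4), p75 solid carcinomas from -0.70 to 1.19 (n = 3) and p110 solid carcinomas from -0.21 to 1.25 (n = 6). High-Wnt tumors had medians from -0.92 to 1.10 (median over tumors 0.12), medium-Wnt tumors from -0.70 to 2.50 (0.60) and low-Wnt tumors from -0.21 to 1.25 (0.96). The ranges overlapped in every grouping, and the center of the low-Wnt tumors was above that of the high-Wnt tumors. The spread of single genes gave the same picture, since the SD over all 17 tumors had a median of 1.13 over the 19 genes, and the SD within transgenes (1.16) or within clusters (1.13) was as large. Arrays of 1 tumor, which carry RNA of the same tumor, differed less, with a median SD of 0.40 (0.12 for Irf1 to 0.76 for Ifi35). Most tumors were scanned on 1 day, so this SD does not cover technical spread between tumors, such as that of dissection or scan day. It is also an SD of single arrays, while each tumor's value is a mean over its arrays.

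**Figure D2:**
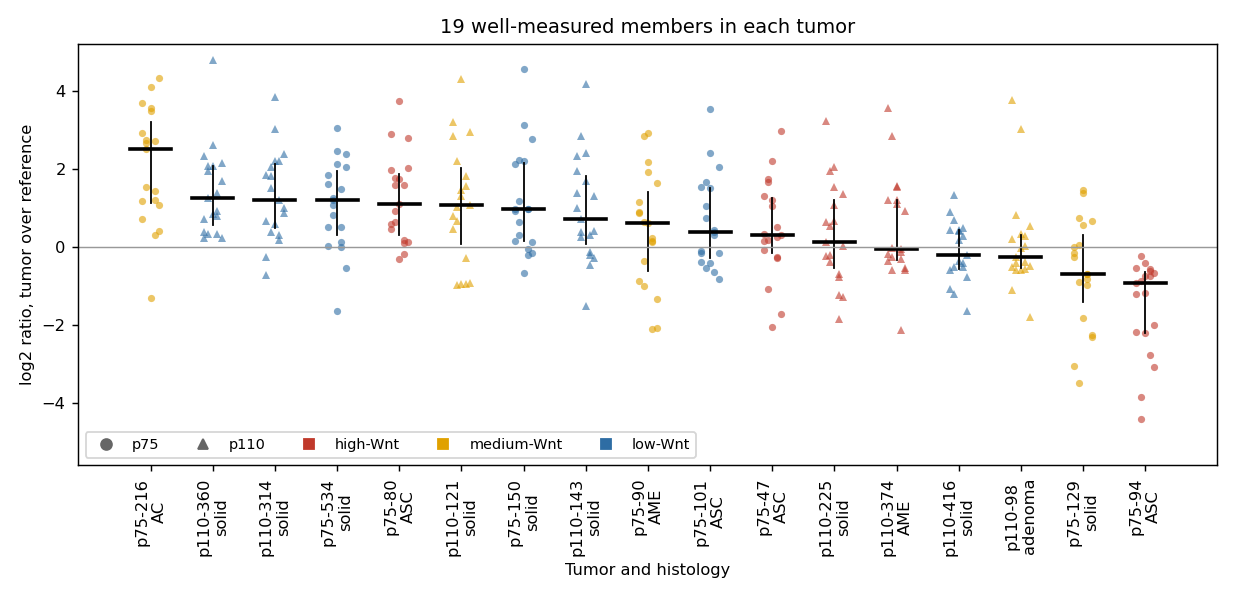
Log2 ratio of each of the 19 well-measured members (points) in each tumor, with the median (thick bar) and the quartiles (thin line); circles are p75 and triangles p110 tumors, colored by Wnt cluster. The median falls from 2.50 in p75-216 to -0.92 in p75-94, and 5 of the 7 low-Wnt tumors are among the 8 highest and 4 of the 5 high-Wnt tumors among the 8 lowest.

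**Figure D3:**
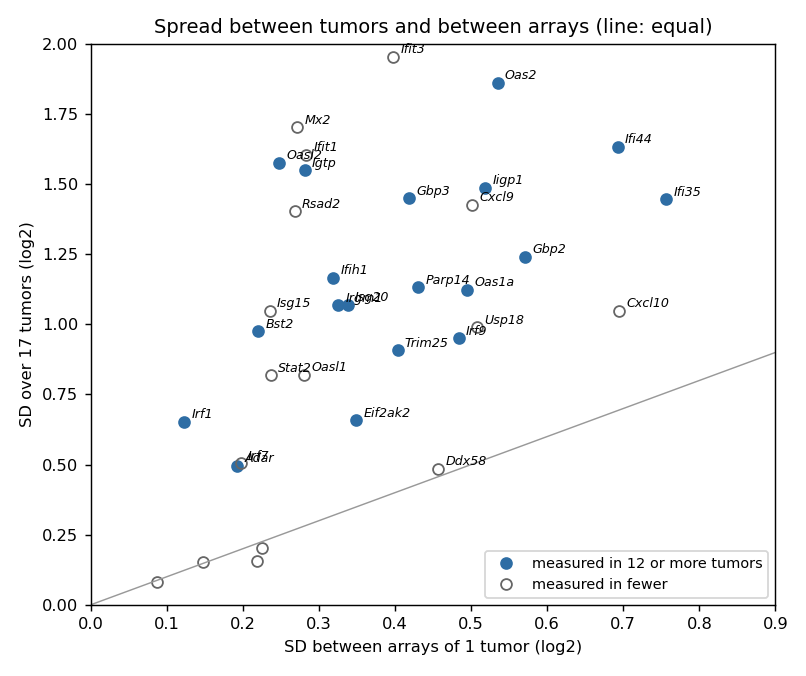
SD of each member over the 17 tumors (vertical) against its SD between arrays of the same tumor (horizontal), both of log2 ratios; the line marks equal values. All 19 well-measured members lie above the line, and the members on or under it, such as Mx1, were measured in few tumors or none.

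The lowest values need to be read with their scan. The tumors p75-94 and p75-129 were scanned on 1 day with no other tumor, and their reference was well above background for 57.9% and 65.5% of probes against 41.9% to 53.6% in the others. In the reference's color, 17 of the 19 members were lower on the arrays of these 2 tumors than on those of the other 7 p75 tumors, by a median of 0.29 on the log2 scale, and 69.9% of all genes measured in at least 12 tumors were lower too (median difference -0.14). The ratio itself, by whose low median these tumors were singled out, differed by a median of -1.94. The part of the scan day in this result was not tested. The tumor p75-216 shared its slide and scan day with p75-534 alone.

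Leukocyte markers differed in several ways between the tumors at both ends. Ptprc, which encodes the leukocyte surface protein CD45, was at -2.16 in p75-216 and at -2.29 in p75-94. Adgre1, a macrophage marker, was at -0.15 and -0.30 in the same tumors. The T cell marker Cd8a was at 2.15 in p75-216 and 0.02 in p75-94, and Nkg7, a gene of cytotoxic lymphocytes, at 2.36 and 0.01. Lyz2, a lysozyme of macrophages and granulocytes, went the other way, with 1.26 and 4.44. The part of such cells in the interferon values was not tested. Of the 16 leukocyte markers 11 and 12 were measured, with medians of 0.09 and 0.01. Over the 17 tumors 5 to 14 of the 16 were measured, and Siglech was measured in none. In p110-121, whose leukocyte median was 1.74, Lyz2 reached 7.17, and the interferon median was 1.08. Over 17 tumors Ptprc correlated with 2 of the 11 members measured in all tumors after adjustment, Gbp3 (r = 0.71, permutation adjusted p = 0.013, Spearman rho = 0.74, adjusted p = 0.0052) and Iigp1 (r = 0.63, adjusted p = 0.0315, rho = 0.80, adjusted p = 0.0022). Without p110-121 and p110-416, which lie farthest from the median of Ptprc, r was 0.74 and 0.56.

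The members moved together across tumors. Among the 171 pairs of the 19 genes, 155 correlated above 0 over the 17 tumors (90.6%, median r = 0.58), while among all genes measured in at least 12 tumors 50.4% of pairs did (median r = 0.00). These pairs share arrays and reference and are a description. Oasl2, a relative of the oligoadenylate synthetases that sense double-stranded RNA, was set against the other 10 members measured in all tumors, a choice made after seeing the data. Of these 10 relations 7 passed the adjusted threshold of 0.05 by Pearson's r (permutation test, 100000 resamples, two-sided): Parp14 (r = 0.77), Adar (0.75), Igtp (0.72), Irf9 (0.70), Irf1 (0.67), Gbp3 (0.59) and Iigp1 (0.55). Their adjusted p ran from 0.0030 (Parp14) to 0.0296 (Iigp1). By Spearman's rho 6 of the 7 passed as well, and Iigp1 did not (rho = 0.40, permutation adjusted p = 0.156). Without p75-129 and p75-216, the tumors farthest from the median of Oasl2, r stayed between 0.51 (Gbp3) and 0.73 (Parp14). Ifi35 (r = 0.17, permutation adjusted p = 0.579) and Trim25 (r = 0.03, permutation adjusted p = 0.902) gave no such relation. Within p75 tumors Irf9 correlated with Oasl2 at 0.72 and within p110 tumors at 0.90, and for Irf1 the values were 0.87 and 0.31. For Parp14 they were 0.81 and 0.73. For Adar, Igtp, Gbp3 and Iigp1 r was between 0.71 and 0.87 within p75 tumors, and between 0.28 and 0.44 within p110 tumors.

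Among the antiviral effectors measured in at least 12 tumors, the largest spreads were those of the oligoadenylate synthetase Oas2, Ifi44, a protein of cytoplasmic microtubules, and Oasl2. Oas2 ran from -3.08 in p75-94 over a median of 0.12 to 4.32 in p75-216 in p75 tumors, and from -0.76 over 0.22 to 2.37 in p110 tumors. It was measured in 12 tumors, and p75-94 was not among them. Ifi44 ran from -4.41 to 2.50 in p75 tumors (median -0.53, lowest in p75-94, where it was not well above background) and from -1.22 to 0.39 in p110 tumors (median -0.25). Oasl2 ran from -3.06 in p75-129 to 3.68 in p75-216 in p75 tumors (median 0.91) and from -1.08 to 1.38 in p110 tumors (median 0.54). For all 3 genes the p110 tumors lay inside the range of the p75 tumors. Ifit3, Mx2 and Ifit1 had SDs over the tumors as large (1.95, 1.70 and 1.60) but were measured in fewer than 12 tumors. Ifit3, which binds viral RNA together with Ifit1, was measured in 11 tumors and was highest in p75-216 (3.97) and p75-150 (2.86). Ifit1 was measured in 10 tumors and was highest in the same 2 tumors, at 3.94 and 2.56. Isg15, measured in 9 tumors, was highest in p75-216 (2.60) and p110-314 (2.50), although the files place its probe on chromosome 17 and RefSeq the gene on chromosome 4, so that its identity is uncertain. Mx1, a GTPase that blocks influenza virus, was measured in 1 tumor.

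The interferon-induced GTPases stood above the reference in most tumors. Iigp1, which coats the vacuoles of Toxoplasma, ran from -0.42 in p75-94 over 3.04 to 4.55 in p75 tumors and from 0.43 in p110-416 over 3.43 to 4.80 in p110 tumors. Igtp, a GTPase of the same Irg family, ran from -3.86 in p75-94 over 1.08 to 2.73 in p75 tumors and from -0.59 over 0.62 to 1.95 in p110 tumors. Gbp3, a guanylate-binding protein, ran from -1.21 over 1.54 to 2.91 in p75 tumors and from -1.10 over 1.13 to 2.83 in p110 tumors. For these 3 genes p75-94 was the lowest of the 17 tumors. Gbp2 had its lowest value in p110-416 (-1.65) and its highest in p75-47 (2.97), with medians of 2.02 in p75 and 1.12 in p110 tumors. The chemokine Cxcl9, which interferon-gamma induces and which attracts T cells, was measured in 10 tumors and reached 4.29 in p110-360, 4.20 in p75-150 and 3.43 in p110-314. The reference was not well above background for Cxcl9 in any tumor, so the size of these ratios depends on the background correction.

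Between the transgenes, 0 of 35 members passed an adjusted p under 0.05 (limma, Benjamini-Hochberg over all genes), where 0.459% of all genes did. At an unadjusted p under 0.05 there were 2 members, both lower in p75 tumors, and 14% of all genes. The median difference of the members, p75 minus p110, was 0.03, with 19 higher and 16 lower in p75, beside 0.00 for all genes. With each of the 17 tumors left out in turn it ran from -0.18 to 0.16. The RNA sensor Ifih1, for example, had a mean of 1.60 ± 1.40 (SD, n = 9) in p75 and 1.40 ± 0.92 (SD, n = 8) in p110 tumors. With each array centered on its median in place of the loess curve, the median difference was 0.72. The smallest p was that of Ifi35, an interferon-induced leucine zipper protein. Its ratio ran from -0.54 over 0.16 to 0.88 in p75 tumors and from -0.26 over 2.57 to 3.77 in p110 tumors, a difference of -1.92 (SE 0.51, 95% interval -3.00 to -0.84) with an adjusted p of 0.0954 by limma. Leaving out p110-314 gave -2.26 with an adjusted p of 0.0157, and over the 17 tumors left out in turn the adjusted p ran from 0.0157 to 0.189. With median centering the difference was -0.63 (adjusted p = 0.181 by limma), and without the 3 weakly labeled p110 tumors it was -1.08 (adjusted p = 0.415 by limma). Isg20, an exonuclease that degrades RNA, ran from -2.21 over -1.30 to 0.60 in p75 and from -1.52 over 0.11 to 1.09 in p110 tumors (difference -1.06, SE 0.44, adjusted p = 0.286 by limma), and with median centering the difference was -0.03. The third was Ifit2, at 0.16 (SE 0.09, adjusted p = 0.487 by limma), which was measured in no tumor.

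Ifi35 stood apart from the other members. It was at 3.77 in p110-98, 3.57 in p110-374, 3.22 in p110-225, 3.19 in p110-121 and 1.95 in p110-143, and at no more than 0.90 in the other 12 tumors. These are the 5 p110 tumors with the weakest color, since their reference was 11.8, 11.2, 8.34, 4.02 and 2.55 times as bright as the tumor, against 0.66 to 1.25 in the other 3 p110 tumors. In p75-90, however, the reference was 2.89 times as bright and Ifi35 was at 0.88. The reference RNA itself also differed between the arrays for this probe. In the reference's color its log2 signal was 7.47 to 8.47 on p75 arrays and 8.77 to 12.4 on p110 arrays, a difference of -3.28 with an adjusted p of 4.7e-06 by limma. In that color 17 of 35 members and 39.5% of all genes differed between the transgenes at an adjusted p under 0.05, but for the other 34 members the difference was below 1. The ligand Ifnab and the nucleic acid sensor Zbp1, both outside the set, were also high in several of these 5 p110 tumors. Their ratios were 3.29 and 4.40 in p110-98, 3.17 and 3.38 in p110-121, 2.95 and 3.41 in p110-225, and 1.80 and 2.03 in p110-143. In p110-374 Zbp1 was at 3.84, but Ifnab was at 0.52, beside 0.56 in p110-360 and 0.86 in p75-216. Scan year and weak color as causes of the Ifi35 values were not tested. Over the 17 tumors, brightness of the reference over the tumor was set against each of the 19 genes, 19 relations in all. Ifi35 had the strongest relation (r = 0.94, permutation adjusted p = 0.00019, Spearman rho = 0.83, adjusted p = 0.0011). Its r was 0.97 within p110 tumors, 0.53 within p75 tumors, and 0.88 over all tumors without p110-98 and p110-374. Of the other 18, Eif2ak2, the kinase PKR that shuts down translation, alone passed by Pearson's r (r = -0.68, permutation adjusted p = 0.027, Spearman rho = -0.64, adjusted p = 0.0648). Without p110-98 and p110-374 its r was -0.52. Eif2ak2 was not well above background in p110-98, p110-374, p110-225 and p75-90, so the end of bright reference rests on background values.

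**Figure D4:**
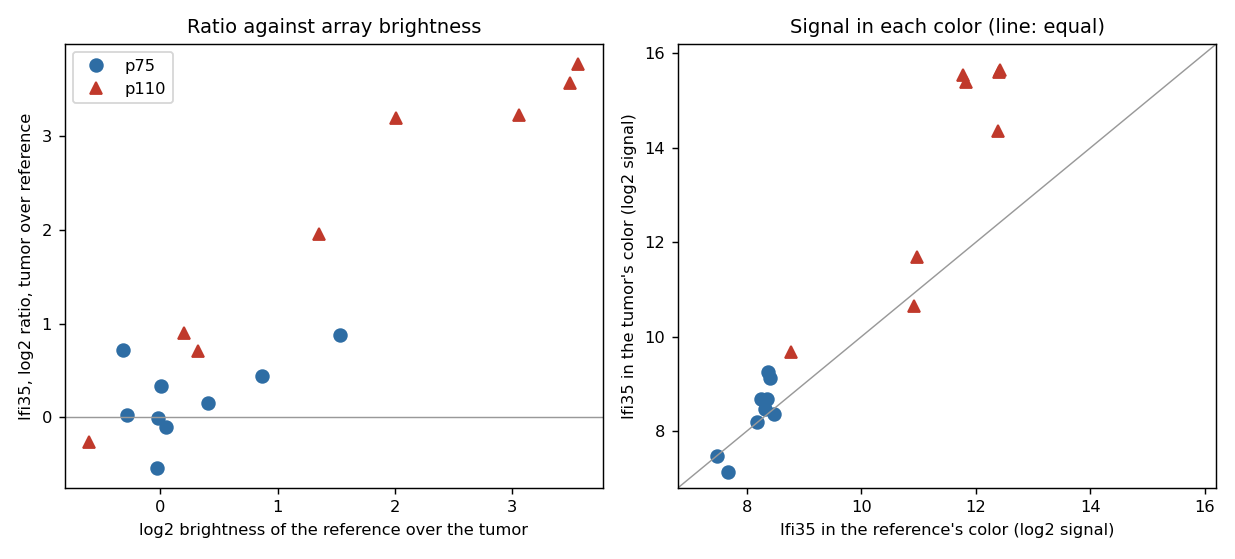
Left, log2 ratio of Ifi35 in each tumor against the log2 brightness of the reference over the tumor; right, log2 signal of the Ifi35 probe in the tumor's color against that in the reference's color, with a line at equal values. The 5 p110 tumors with a ratio of 1.95 or more are the p110 tumors with the brightest reference relative to the tumor, and the reference signal itself is higher in all p110 tumors.

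Within solid carcinomas, 3 p75 were compared with 6 p110 tumors, and 0 of 35 members and 0% of all genes passed the adjusted threshold in limma. At an unadjusted p under 0.05 there was 1 member (Ifi35, adjusted p = 0.742) and 6.68% of all genes. The median difference of the members was -0.10, with 14 higher and 21 lower in p75 tumors, and over the 19 well-measured genes it was -0.25 with 15 lower. Isg20 was at -1.82, -1.66 and -0.66 in the p75 tumors and between -1.52 and 0.83 in the p110 tumors, a difference of -1.25 (95% interval -2.62 to 0.11, adjusted p = 0.762 by limma). Ifit2, next by p, was measured in none of these tumors. Without p75-94 and p75-129 the median difference was 0.34, p75-129 being 1 of the 3 solid p75 tumors. With all tumors kept and median centering it was 0.52, so its sign also turned with the normalization.

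Adenosquamous carcinomas resemble skin in part of the tumor, and 4 of them were compared with the 3 solid carcinomas of the same transgene. Again 0 of 35 members and 0% of all genes passed in limma, and at an unadjusted p under 0.05 there were 0 members and 2.86% of all genes. The median difference, adenosquamous minus solid, was -0.17 with 27 members lower. Ifit3 was at -3.67, -3.30, -2.11 and 0.19 in the adenosquamous and at -1.79, -0.91 and 2.86 in the solid carcinomas, a difference of -2.27 (95% interval -4.82 to 0.28, the adjusted p rounded to 1 in limma). Only 1 of those 4 adenosquamous tumors, p75-80, was measured for Ifit3. Ifih1, the sensor of long double-stranded RNA also called MDA5, was at -1.18, 1.05, 1.10 and 1.50 against 1.37, 2.13 and 2.19 (difference -1.28, 95% interval -2.83 to 0.27). Oas3 came after these by p, with a difference of -0.14, and was measured in 1 tumor of each group. The groups overlapped for all 3 genes. Single tumors set much of these values, since the difference of Ifit3 was -0.87 without p75-150, that of Ifih1 -0.68 without p75-94 and that of Oas3 -0.0094 without p75-129. With each of the 7 tumors left out in turn the median difference ran from -0.77 to 0.03.

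Between high-Wnt and low-Wnt tumors, the members were mostly lower in the high-Wnt group, but 0 of 35 passed in limma, where 0.184% of all genes did. At an unadjusted p under 0.05 there were 5 members, all lower in high-Wnt tumors (Eif2ak2, Trim25, Irgm1, Iigp1 and the chemokine Cxcl9), or 14.3% of the set beside 11.9% of all genes. The median difference, high minus low, was -0.52, with 28 members lower and 7 higher, beside 0.01 over all genes. Of the 19 well-measured genes 18 were lower, with a median of -0.92, and the exception was Ifi35 (0.92). Eif2ak2 was at -0.59, -0.23, -0.22, 0.17 and 0.64 in the high-Wnt tumors and from 0.26 over 0.73 to 1.51 in the low-Wnt tumors (difference -0.88, SE 0.32, adjusted p = 0.276 by limma). Trim25, a ubiquitin ligase that activates the RNA sensor Ddx58, was at -2.12, -1.86, -0.57, -0.28 and 0.17 against -0.22 over 0.17 to 0.91 (difference -1.14, SE 0.45, adjusted p = 0.315 by limma). Its 2 lowest values were those of the weakly labeled p110-374 and p110-225, and without the 3 weak tumors the difference was -0.43. Irgm1, a regulator of the Irg GTPases, was at -2.79, -1.24, -0.30, 0.09 and 0.26 against -0.51 over 0.50 to 1.21 (difference -1.25, SE 0.54, adjusted p = 0.369 by limma, and -0.75 without p75-94). The groups overlapped for all 3 genes. Beside these members, the lymphocyte markers Cd8a (0.40 ± 0.97, SD, n = 5, against 2.06 ± 1.38, SD, n = 7) and Nkg7 (1.77 ± 1.25 against 3.61 ± 1.67) had lower means in high-Wnt tumors, with adjusted p of 0.332 and 0.457 by limma. Over all 16 leukocyte markers the median difference was 0.04, and their part in the interferon values was not tested. Irgm1 was measured in 2 and Eif2ak2 in 3 of the 5 high-Wnt tumors, and both in all 7 low-Wnt tumors. The high-Wnt group holds the weakly labeled p110-225 and p110-374 as well as p75-94, and the median difference was -0.56 without the 3 weak tumors and -0.17 without p75-94, whether or not p75-129 was also left out. Within p75 tumors (3 against 3) it was -0.53 and within p110 tumors (2 against 4) -0.42.

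**Figure D5:**
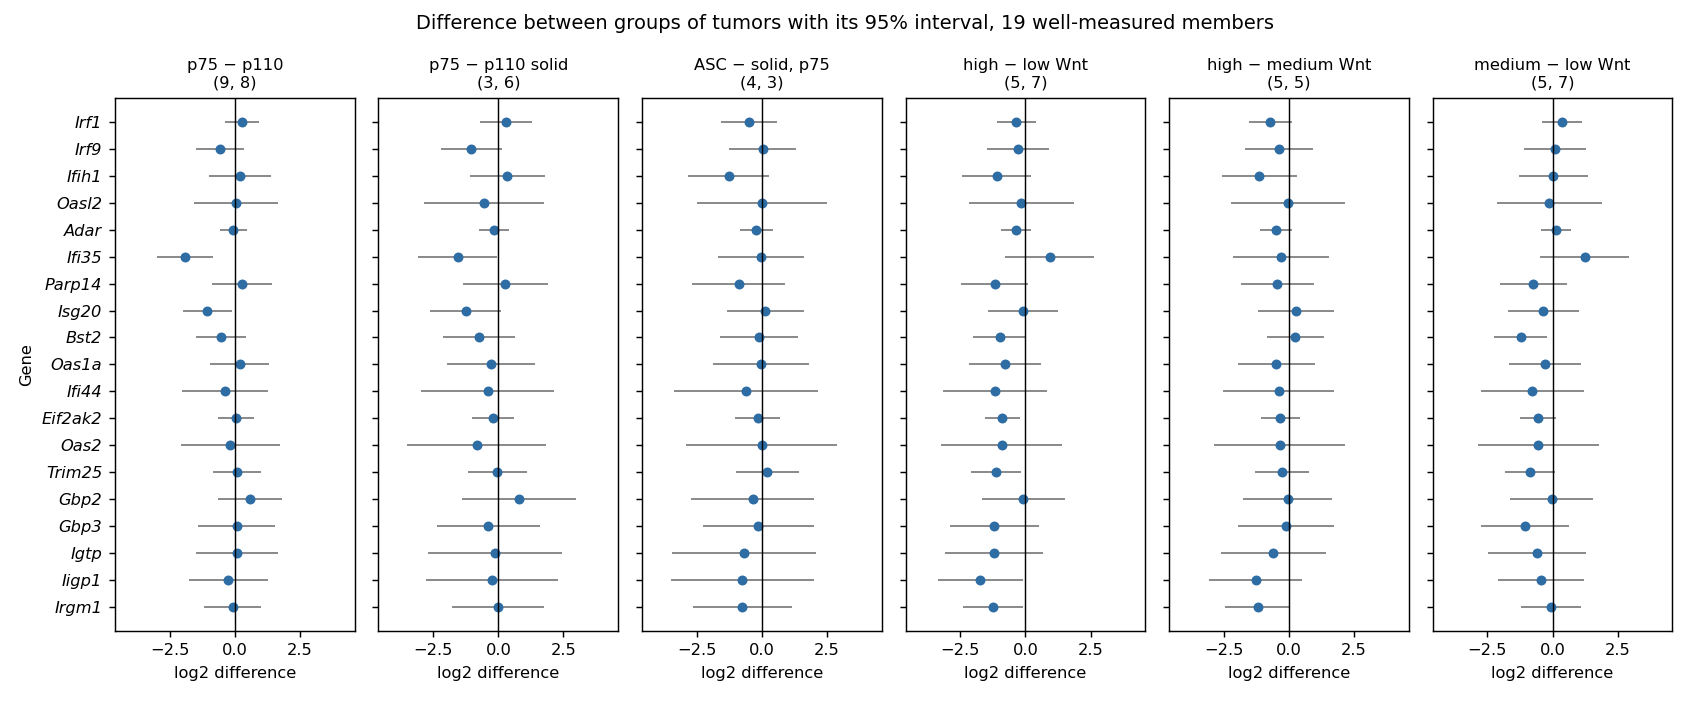
Difference in log2 ratio between 2 groups of tumors (points) with its 95% interval (lines) from limma for the 19 well-measured members, with 1 panel for each comparison and the number of tumors of both groups in parentheses. In the panel of high-Wnt minus low-Wnt tumors 18 of 19 points lie left of 0, and 0 members passed the adjusted threshold in any panel.

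High-Wnt and medium-Wnt tumors gave 0 members and 0% of all genes in limma, and 0 members and 4.02% of all genes at an unadjusted p under 0.05. The median difference was -0.36, with 30 of 35 members lower in high-Wnt tumors. It was -0.04 without p75-216, -0.08 without p75-94 and -0.66 without p75-129. Irgm1 (difference -1.20, SE 0.58), the transcription factor Irf1 (-0.71, SE 0.38) and Adar (-0.50, SE 0.29), which edits adenosines in double-stranded RNA, had the smallest p. Without p75-94 the difference of Irgm1 was -0.70, and without p75-216 that of Adar was -0.22. Irf1 was at -0.92, -0.36, -0.24, 0.15 and 0.59 in high-Wnt and at -0.26, 0.19, 0.80, 0.86 and 1.18 in medium-Wnt tumors. Adar was at -0.74, -0.70, -0.26, -0.18 and -0.13 against -0.70, -0.29, 0.03, 0.23 and 1.20, the highest again being p75-216. Both pairs of groups overlapped.

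Between medium-Wnt and low-Wnt tumors 0 members passed in limma and 0.0278% of all genes did, and 4 members and 10.9% of all genes had an unadjusted p under 0.05. The median difference, medium minus low, was -0.05, with 15 members higher and 20 lower, and over the 19 well-measured genes it was -0.36 with 14 lower. The sign over all 35 turned without p75-129 (0.12), p110-98 (0.09) or p110-360 (0.0064). Bst2, or tetherin, which holds budding viruses at the cell surface, was at -2.32, -2.09, -1.80, -0.92 and 0.40 in medium-Wnt tumors and from -0.82 over -0.21 to 0.98 in low-Wnt tumors (difference -1.23, SE 0.48, adjusted p = 0.378 by limma). Cxcl9 was at 0.01, 0.30, 0.75, 0.80 and 3.33 against 0.17 over 2.64 to 4.29 (difference -1.63, SE 0.71, adjusted p = 0.422 by limma), and it was measured in 2 of 5 and in 6 of 7 tumors. Ifit2 had the smallest p (difference 0.30, adjusted p = 0.286 by limma) but was measured in no tumor. The difference of high-Wnt against low-Wnt tumors was tested between the transgenes as an interaction, where 0 members and 0.0104% of all genes passed in limma. Ifi35 had the smallest p there (-2.51, adjusted p = 0.111), and when p110-143 was left out it passed (-2.89, adjusted p = 0.0172).

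The signals upstream of the program were partly out of reach. Of 12 interferon genes with a probe, Ifnab alone was measured in at least 12 tumors, and Ifnb1, Ifne and Ifna11 were measured in none. The alpha genes are near-identical copies, so a probe may read several of them. Of the receptors and kinases 7 of 9 were measured in at least 12 tumors. No gene of the ligand, receptor, signaling or antigen presentation lists passed the adjusted threshold in any of the 6 comparisons. Sting1, the adaptor of the DNA sensor cGAS, had a mean of 0.69 ± 0.46 (SD, n = 7) for low-Wnt tumors and of 1.83 ± 0.50 (SD, n = 5) for high-Wnt tumors. High minus low was 1.14 (SE 0.38, adjusted p = 0.223 by limma). Tap2, which pumps peptides for presentation on class I molecules, had the smallest p of its list between the transgenes (p75 minus p110 -1.95, adjusted p = 0.14 by limma). Like Ifi35 it was high in p110-98 (4.33), p110-374 (3.56), p110-225 (3.27), p110-121 (2.92) and p110-143 (2.02), and it was between -0.84 and 0.54 in the other 3 p110 tumors. The median of the 12 antigen presentation genes was 1.46 in p75-216, 1.81 in p110-121, -0.37 in p75-129 and -0.23 in p75-94. It was as high in p75-101 (1.47) and p75-150 (1.42), whose interferon medians were 0.39 and 0.96.

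Irf7, the transcription factor that amplifies type I interferon production, was measured in 6 tumors and was highest in p75-216 (1.12) and p110-314 (1.08), with values from -0.66 to 0.06 elsewhere. Since it was measured in fewer than 12 tumors, its planned relations with 7 other members and Ptprc were not computed. For the same reason no genes are named as most like it. For Oasl2, among 9603 genes measured in at least 12 tumors, the 5 with the highest correlation over the 17 tumors were Ifi44 (r = 0.90), Apol9b (0.87), H2-T10 (0.82), Oas2 (0.80) and Shisa5 (0.79).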

How the data were processed

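RNA of laser-microdissected tumor epithelium was amplified in 2 rounds and hybridized by the authors against an amplified universal mouse reference on 38 2-color Agilent arrays of 45018 spots (41174 probes). The scanner files hold intensities that the authors deposited without normalization. The deposited table holds the authors' log2 ratios of tumor over reference, and recomputation from the scanner files (normexp with an offset of 50, loess, dye swaps turned and averaged) differed by at most 4.98e-08. Feature Extraction and limma are the tools named per the labels and methods. These log2 ratios were used without control spots, averaged per probe, with the brightest probe for each gene. RefSeq named 22951 probes. 16 members had several probes, with 21 other probes in all. In the 1 pair with both measured in at least 12 tumors (Adar), r was 0.69. The remaining probes were measured in fewer tumors. Their r with the brightest probe ran from -0.21 (Parp14, measured in 0 tumors) to 0.83 (Isg20, measured in 5). For Irgm1 it was 0.22 with a probe measured in 10 tumors.

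Groups of tumors were compared with limma 3.58.1 in R 4.3.3 (lmFit and eBayes, all 17 tumors in each fit, Benjamini-Hochberg over 28784 genes, threshold 0.05): transgenes as 2 groups, transgene and histology as 7 groups, and clusters as 3 groups. Correlations were tested with 100000 permutations. The fits were tested on simulated data. Arrays carry no counts, so their number limits the precision. Members, gene lists and alternatives were chosen with earlier results of these data known. Genes were named where they passed a test, for the 8 largest SDs among members measured in at least 12 tumors, and for the 3 smallest p of each comparison; further genes were named after their values were seen. Alternatives were other background corrections and normalizations, single dyes, filters, probe averages, covariates, scan and slide blocks, and tumors left out. The clusters were taken from the study's heat map. A gene of the signaling list is not reported here.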

Additional observations from a re-analysis of the deposited data

Results flagged for a closer look

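A single tumor lay far from the rest of its group in 11 of 147 groups of values, by Dixon's test at the 95% level. The genes flagged had been named for a large spread or a small p on these same values. The groups also overlap and the members move together, so the count cannot be set against a rate expected by chance. In 5 of these 11 groups the single tumor was p75-94 at the low end. Among adenosquamous carcinomas it had Igtp at -3.86 (next tumor 1.05), Irgm1 at -2.79 (0.09) and Ifih1 at -1.18 (1.05). Irgm1 at -2.79 also stood apart among all p75 tumors (-0.71), and Ifih1 at -1.18 among high-Wnt tumors (1.05). In 3 groups it was p110-416 among low-Wnt tumors, with Iigp1 at 0.43 (3.04), Gbp3 at 0.42 (1.54) and Gbp2 at -1.65 (0.86). The tumor p75-216 was high for Adar among p75 tumors (1.20, next 0.23) and for Cxcl9 among medium-Wnt tumors (3.33, next 0.80). The last was Trim25 at -2.10 in p75-90 among p75 tumors (-0.81). Irgm1 was not well above background in p75-94.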

How the results depend on the processing

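Of the values that answer a comparison, 376 moved under an alternative by less than the SD between tumors (0.50 to 0.68 for the median differences, which can include a change of sign) or, for counts, by less than 1.5 times, and 9 moved by more, and of those of single genes 509 kept direction and side of the threshold, 2 newly passed it and 2 turned. High minus low Wnt, the median difference was -1.06 with the Feature Extraction processed signals and -1.09 with median centering, which also gave 0.72 between the transgenes and 0.52 in solid carcinomas. In the tumor's color alone 1 member passed between the transgenes (Ifi35, -5.19, adjusted p = 0.0010 by limma), with 2571 genes called in place of 132, and Ifit2 turned to -0.040 there and to -0.024 in solid carcinomas. With each tumor left out, 0 to 1 members passed between the transgenes (Ifi35 without p110-314, with 1163 genes called) and 0 to 1 in the interaction (Ifi35 without p110-143). The median of p75-216 was 1.42 with the mean of all probes and 1.43 over all 35 members. It stayed the highest in 9 of 10 settings and p75-94 the lowest in 8 of 10. With arrays scaled to the same spread p110-314 was the highest (3.16) and p75-129 the lowest (-1.16), and with median centering p110-98 was the lowest (-2.28). The causes were not tested. Without the 3 weakly labeled tumors, or without p75-94 and p75-129, both chosen after seeing the data, 0 members passed in any comparison. No paired analysis was possible because the replicate numbers follow accession order and the labels give the groups none in common. Signal over background limits the 16 members measured in fewer than 12 tumors.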
